A study of Rattus norvegicus with 8 samples.

Results

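The contractile apparatus of smooth muscle was examined through 10 genes in cultured annulus fibrosus cells (AFCs), the cells of the outer ring of the intervertebral disc. The genes were Myh11, Myl9, Mylk, Cnn1, Tagln, Cald1, Tpm1, Tpm2, Lmod1 and Smtn, which are 10 of the 31699 rows of the expression table. They were chosen by name, with their difference between these same samples already known, so their differences between the groups are given as a description without a test. The actins were not among them. The cells came from Sprague Dawley rats, with the tissue of 8 rats pooled for an isolation, and were used at the third passage. The Lv-Ctrl group (4 samples) carried the empty short hairpin vector pLVX-shRNA-Puro, and the Lv-Piezo1 group (4 samples) carried the same vector with a short hairpin RNA against Piezo1, a mechanically gated cation channel. Both groups were infected at a multiplicity of 20 for 24 h, and both then underwent cyclic mechanical stretch (CMS) of 20% elongation at 0.5 Hz over 36 h, so no unstretched or uninfected sample enters the comparison. The study's methods describe male rats aged 3 months in the account of its surgical model, and give no separate age for the rats whose cells were isolated.

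The targeted transcript went against the label. Piezo1 TPM, a transcript level corrected for length and scaled to the same total in every sample, was 31.1, 33.0, 26.7 and 29.5 in the Lv-Ctrl samples and 38.1, 37.7, 40.2 and 41.4 in the samples labelled Lv-Piezo1. The groups did not overlap, and the level was higher where a knockdown was labelled, with a log2 fold change of 0.38 (SE 0.06, limma with Benjamini-Hochberg adjustment, adjusted p = 8.57e-04). The log2 value was 0.24 above the median of all tested genes, and 0.22 after median-ratio scaling. An exact two-sided permutation test gave p = 0.029, the smallest that 4 samples against 4 allow. Every direction below is therefore drawn from the labels, as the samples labelled Lv-Piezo1 compared with Lv-Ctrl.

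In smooth muscle, force comes from myosin filaments pulling on actin filaments that are anchored at dense bodies and at the cell membrane. Calcium bound to calmodulin activates myosin light chain kinase, which phosphorylates the regulatory light chain and lets the myosin head cycle, while a phosphatase reverses this. Tropomyosin, caldesmon, calponin and transgelin lie along the actin filament, and most of these genes are targets of serum response factor (SRF) and its coactivators of the myocardin family. Fibroblasts and the fibrous cells of tendon and disc can also carry part of this program.

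Over the 13103 genes whose mean TPM reached 1, limma on log2(TPM + 1) called 1005 (adjusted p under 0.05 and a log2 fold change of 1 or more in either direction), of which 644 were higher and 361 were lower in samples labelled Lv-Piezo1. The median log2 fold change of all tested genes was 0.14, so each member's log2 difference is also given above that median. The share of calls that were higher was 64.1%, and median-ratio scaling made it 52.3% and quantile normalization 48.8%. Log2 values of samples of the same group correlated at 0.973 to 0.983, and those of different groups at 0.939 to 0.945. The second Lv-Ctrl sample stood apart in striated muscle genes, with 88.1 TPM summed over 25 of them against 43.5 to 47.0 TPM in the other Lv-Ctrl samples. Without that sample the same number of members, 6, met the call rule. TPM keeps no sequencing depth, so depth is unknown and precision rests on the spread of 4 samples. Of 12 fibrous annulus markers, 11 reached a mean of 1 TPM, with Col1a1 at 3282 TPM in Lv-Ctrl, while Tnmd was listed at 0 in 7 of 8 samples.

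The genes of the thick filament and its switch, Myh11, Myl9 and Mylk, had ratios of group means from 4.65 to 26.6. Myh11, the smooth muscle myosin heavy chain (ENSRNOG00000057880), was at 1.84, 2.08, 1.72 and 1.56 TPM in Lv-Ctrl and at 48.0, 46.1, 49.2 and 48.4 TPM in the samples labelled Lv-Piezo1. All 4 of the latter lay far above all 4 of the former, from means of 1.80 ± 0.219 (SD, n = 4) to 47.9 ± 1.31 TPM, a ratio of 26.6. On the log2(TPM + 1) scale, which understates differences of genes at low TPM, this was 4.13 (SE 0.06), or 3.99 above the median of all genes, the highest of the 10 members. In bulk RNA, more RNA per cell and more cells of a kind that carries it cannot be told apart. Myl9, the regulatory light chain that is phosphorylated to start contraction (ENSRNOG00000020246), was at 124, 119, 119 and 116 TPM in Lv-Ctrl. It stood at 567, 574, 565 and 515 TPM in the samples labelled Lv-Piezo1, again without overlap. The ratio of the means was 4.65, and the log2 difference was 2.21 (SE 0.04), or 2.07 above the median of all genes. Mylk, the kinase that acts on that light chain (ENSRNOG00000002215), was at 1.67, 1.57, 1.46 and 1.37 TPM in Lv-Ctrl and at 11.1, 11.2, 11.8 and 11.6 TPM in the samples labelled Lv-Piezo1. It was the least abundant member in both groups, and its groups did not overlap. The means were 1.52 ± 0.131 and 11.4 ± 0.344 TPM, a ratio of 7.51 and a log2 difference of 2.30 (SE 0.07). The Mylk gene also encodes long non-muscle kinases and telokin, which holds no kinase domain, and a gene-level TPM does not separate them.

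Calponin and transgelin, which bind the actin filament, differed most among the thin filament genes. Cnn1, the smooth muscle calponin that slows the myosin ATPase (ENSRNOG00000027736), was at 15.1, 17.2, 15.8 and 15.4 TPM in Lv-Ctrl and at 258, 261, 264 and 256 TPM in the samples labelled Lv-Piezo1. The lowest of the latter was far above the highest of the former, with means of 15.9 ± 0.936 and 260 ± 3.61 TPM, a ratio of 16.4 and a log2 difference of 3.95 (SE 0.04). Tagln, or SM22, an actin-bundling protein widely used as an early marker of smooth muscle (ENSRNOG00000017628), was at 221, 213, 223 and 221 TPM in Lv-Ctrl. In the samples labelled Lv-Piezo1 it was at 2712, 2775, 2752 and 2682 TPM. Tagln thus passed from the fourth most abundant member to the most abundant one, with a ratio of means of 12.4 and a log2 difference of 3.63 (SE 0.03), or 3.49 above the median of all genes.

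Caldesmon and the tropomyosins were abundant in both groups and differed little. Cald1, or caldesmon, which holds back the myosin ATPase on the actin filament (ENSRNOG00000010233), was at 428, 430, 332 and 408 TPM in Lv-Ctrl and at 592, 570, 629 and 681 TPM in the samples labelled Lv-Piezo1. It had the widest spread of the members in the latter group, with a coefficient of variation of 7.87%, and the groups still did not overlap. Its ratio of means was 1.55, and the log2 difference was 0.63 (SE 0.09), or 0.49 above the median of all genes. Tpm1, a tropomyosin that lies in the actin groove (ENSRNOG00000018184), was at 769, 738, 722 and 744 TPM in Lv-Ctrl and at 1071, 1046, 1124 and 1073 TPM in the samples labelled Lv-Piezo1. The groups lay apart, at a ratio of 1.45 and a log2 difference of 0.54 (SE 0.03). Tpm2, the beta tropomyosin (ENSRNOG00000016731), was at 1216, 1189, 1364 and 1224 TPM in Lv-Ctrl and at 1595, 1635, 1626 and 1467 TPM in the samples labelled Lv-Piezo1. This was the smallest difference of the 10, at a ratio of 1.27 and a log2 value of 0.34 (SE 0.05), which is 0.20 above the median of all genes. The Tpm2 groups did not overlap in TPM as deposited but did overlap after median-ratio scaling. Smooth muscle and fibroblasts make different splice forms of Cald1, Tpm1 and Tpm2 from the same genes, and the gene-level values do not tell these forms apart.

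Lmod1 and Smtn complete the set. Lmod1, or leiomodin 1, which starts new actin filaments in smooth muscle (ENSRNOG00000051548), was at 14.5, 12.5, 12.7 and 13.8 TPM in Lv-Ctrl and at 57.5, 53.7, 57.0 and 58.5 TPM in the samples labelled Lv-Piezo1. There was no overlap, and the ratio of means was 4.24 with a log2 difference of 2.01 (SE 0.05). Smtn, or smoothelin, an actin-binding protein of contractile smooth muscle (ENSRNOG00000019451), was at 132, 131, 121 and 122 TPM in Lv-Ctrl and at 211, 203, 207 and 213 TPM in the samples labelled Lv-Piezo1. Its groups lay apart by less, with a ratio of means of 1.65 and a log2 difference of 0.72 (SE 0.04).

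**Figure D1:**
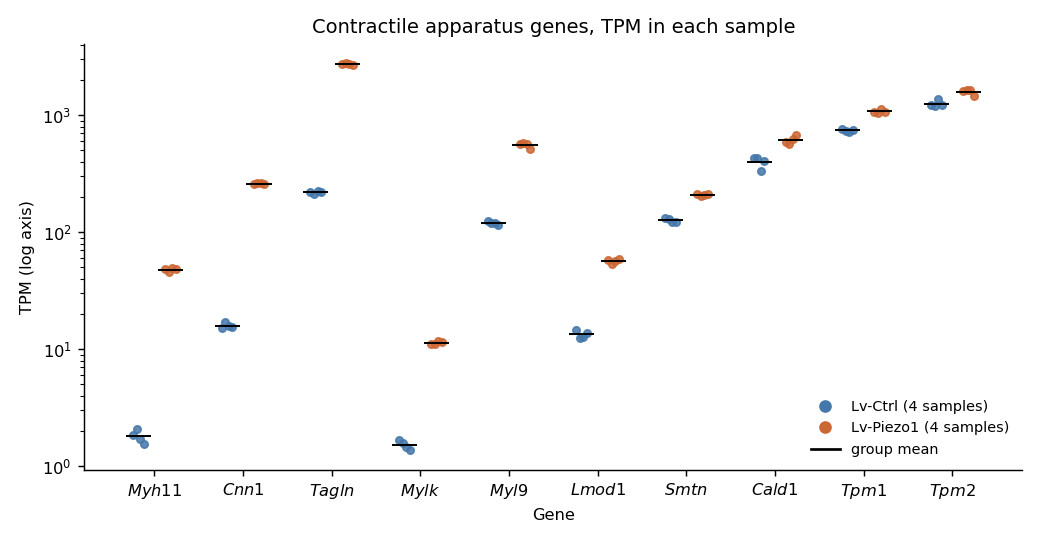
TPM (vertical log axis) of the 10 contractile apparatus genes (horizontal axis, ordered by the ratio of group means) in each of the 4 Lv-Ctrl samples (blue) and the 4 samples labelled Lv-Piezo1 (orange), with group means as black lines. The groups do not overlap for any of the 10 genes, and the gap narrows from Myh11 (ratio 26.6) to Tpm2 (ratio 1.27).

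The 10 genes fell into a part with large and a part with small differences. Myh11, Cnn1, Tagln, Mylk, Myl9 and Lmod1 lay between 2.01 and 4.13 on the log2 scale, while Smtn, Cald1, Tpm1 and Tpm2 lay between 0.34 and 0.72, and no member lay between 0.72 and 2.01. Only the first 6 met the call rule, all higher, where 4.91% of all tested genes were called higher and 2.76% lower. All 10 were higher without overlap between the groups, as were 39.8% of all tested genes. Because the members were chosen with this contrast known, nothing is read from these counts. By log2 difference, Myh11 ranked 10, Cnn1 13 and Tagln 19 among the 13103 genes, whereas Tpm1 ranked 2140 and Tpm2 3798. The 4 genes with small differences were also among the 5 most abundant members in Lv-Ctrl.

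**Figure D2:**
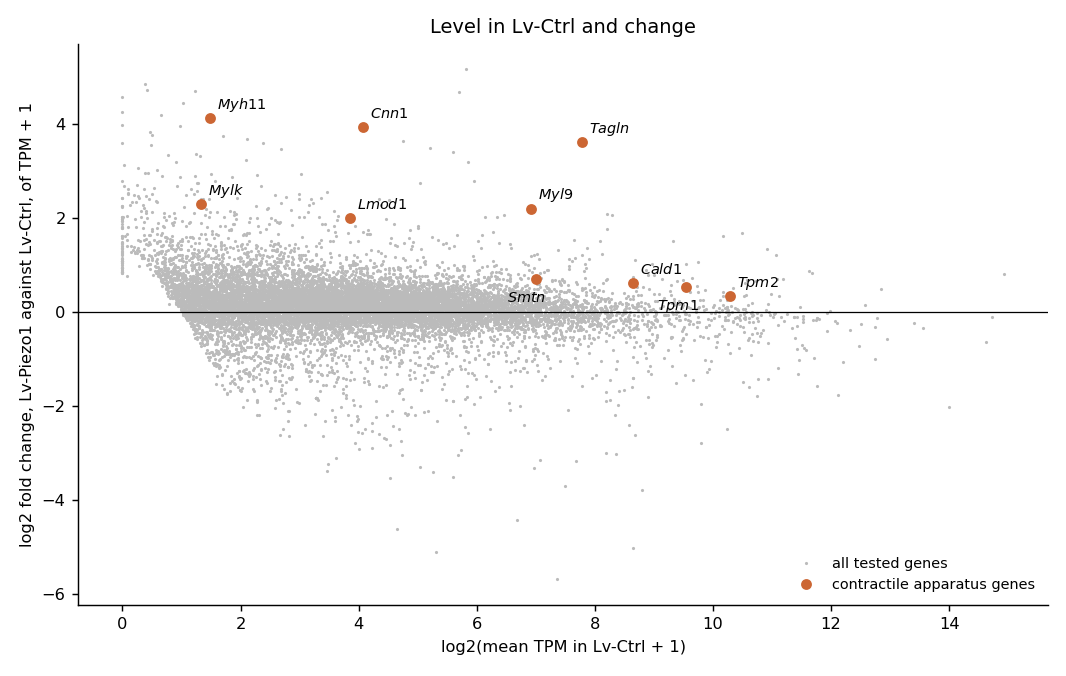
Log2 fold change of the samples labelled Lv-Piezo1 against Lv-Ctrl (vertical axis, log2 of TPM + 1) against the log2 mean TPM + 1 in Lv-Ctrl (horizontal axis) for the 13103 tested genes (grey) and the 10 contractile apparatus genes (orange). Myh11, Cnn1 and Tagln sit near the top at low, middle and high starting levels, and Smtn, Cald1, Tpm1 and Tpm2 sit at high starting levels with values of 0.72 or less.

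The order of levels, on the TPM scale, which accounts for transcript length, was not the same in the groups. In Lv-Ctrl it ran from Tpm2 through Tpm1, Cald1, Tagln, Smtn, Myl9, Cnn1, Lmod1 and Myh11 to Mylk, and the neighbours Smtn and Myl9, and Myh11 and Mylk, had overlapping samples. In the samples labelled Lv-Piezo1 it ran from Tagln through Tpm2, Tpm1, Cald1, Myl9, Cnn1, Smtn, Lmod1 and Myh11 to Mylk, with an overlap of neighbours between Cald1 and Myl9 alone. The summed TPM of the 10 genes was 2889 ± 34.5 (SD, n = 4), or 0.289% of all TPM, in Lv-Ctrl, and 7147 ± 116 TPM, or 0.715%, in the samples labelled Lv-Piezo1, which is 2.47 times as much. Replicates of a group were close to each other, with coefficients of variation from 2.11% (Tagln) to 12.2% (Myh11) in Lv-Ctrl and from 1.39% (Cnn1) to 7.87% (Cald1) in the samples labelled Lv-Piezo1.

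Markers of smooth muscle and mural cells outside the contractile apparatus did not share 1 direction. Of 17 such genes that were present, 12 were tested, and 4 rose and 3 fell by the call rule. Among all tested genes 4.91% were called higher and 2.76% lower. The median of the 12 was 0.30 against 0.14 for all tested genes. Mcam, an adhesion molecule of mural and other cells, rose from 7.17 ± 0.226 to 62.2 ± 2.29 TPM (log2 fold change 2.95, adjusted p = 2.12e-10), and Cox4i2 (1.41) and Ndufa4l2 (1.06, and 0.90 after median-ratio scaling), which encode mitochondrial proteins, rose as well. Kcnj8 and Abcc9, which together form the vascular ATP-sensitive potassium channel, fell from 326 ± 5.61 to 39.1 ± 2.61 TPM (log2 fold change -3.03) and from 73.7 ± 10.1 to 12.3 ± 1.04 TPM (log2 fold change -2.49), and Ramp1, a receptor partner, fell from 3.18 to 0.843 TPM. Pdgfrb and Cspg4, of the same list, were present in both groups and not called. Pdgfrb was at 106 ± 4.48 TPM in Lv-Ctrl and 118 ± 2.28 TPM in the samples labelled Lv-Piezo1 (log2 fold change 0.15). Cspg4 was at 29.5 ± 2.77 and 51.05 ± 1.92 TPM (0.78). The defining pericyte marker Rgs5 was at or below 0.35 TPM in all 8 samples, and Heyl was listed at 0 in all 8. Notch3, a receptor of mural cells, was below the filter and not tested. Its level was 0.13 to 0.22 TPM in Lv-Ctrl and 1.30 to 1.67 TPM in the samples labelled Lv-Piezo1. The summed level of these markers was 758 to 800.5 TPM in Lv-Ctrl and 662 to 668 TPM in the samples labelled Lv-Piezo1, a difference that 1 gene carried. Without Kcnj8 the sum was 433 to 468 TPM in Lv-Ctrl and 619 to 632 TPM in the samples labelled Lv-Piezo1.

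Markers of other cells that a disc isolate could hold also differed between the groups, and their part in the members' values was not tested. Of the 8 leukocyte genes 1 was tested, Cd68, a lysosomal protein of macrophages that other cells also make, and it rose from 0.955 ± 0.899 to 12.3 ± 0.901 TPM (log2 fold change 2.88, adjusted p = 2.72e-05). The summed level of the leukocyte genes was 1.01 to 2.94 TPM in Lv-Ctrl and 12.8 to 14.5 TPM in the samples labelled Lv-Piezo1, with Adgre1 and Cd163 listed at 0 in all 8. Nearly all of this was Cd68, and the other leukocyte genes summed to 0.58 to 0.86 TPM against 1.01 to 2.30 TPM. The endothelial sum was 25.2 to 34.0 TPM against 28.2 to 33.2 TPM, nearly all of it Egfl7, and Egfl7, the 1 gene tested, was not called (log2 fold change 0.06). Fibrous annulus genes summed to 7408 to 8332 TPM in Lv-Ctrl and 11310 to 12110 TPM in the samples labelled Lv-Piezo1. By the call rule 2 of 11 tested rose and 1 fell, where 4.91% of all tested genes were called higher and 2.76% lower. At a limma adjusted p under 0.05 alone, 7 of the 11 were higher and 3 lower, against 5489 and 2137 of 13103 tested genes. Col1a1 and Col1a2, neither of them called, carried the difference in the sum, and the other genes of the list summed to 2188 to 2474 TPM in Lv-Ctrl and 1964 to 2144 TPM in the samples labelled Lv-Piezo1. Thbs4, a matrix protein of tendon, rose from 56.4 ± 2.95 to 529 ± 15.9 TPM (log2 fold change 3.21), and Comp, its relative, rose from 0.738 to 2.86 TPM (1.16, and 0.93 after quantile normalization). The collagen-binding proteoglycan Dcn fell from 1456 ± 69.3 to 519 ± 14.9 TPM (log2 fold change -1.49). Fmod (-0.99) and Mkx (-0.76), of the same list, were also lower and did not reach the fold threshold. None of 3 tested chondrocyte-like genes reached the fold threshold, though by limma 1 was higher and 1 lower at an adjusted p under 0.05. The list summed to 42.2 to 51.8 TPM in Lv-Ctrl and 58.6 to 62.1 TPM in the samples labelled Lv-Piezo1. Of 2 tested nucleus pulposus genes the surface glycoprotein Cd24 rose from 3.79 to 21.9 TPM. The other, Krt8, was at 2.56 TPM in Lv-Ctrl and 3.17 TPM in the samples labelled Lv-Piezo1 (log2 fold change 0.22) and was not called. Tbxt and Shh were listed at 0.

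Most of the members have relatives in the same protein family that act in other cells, while none was listed for Cald1. Of the 21 such counterparts found, 14 were tested. Of these counterparts 3 rose by the call rule, where 4.91% of all tested genes were called higher, and none fell. At a limma adjusted p under 0.05 alone, 11 were higher and 2 lower. The median log2 fold change of the 14 was 0.44 against 0.14 for all tested genes. Lmod3, the skeletal muscle leiomodin, rose from 1.02 ± 0.324 to 6.71 ± 0.701 TPM (log2 fold change 1.94, SE 0.13, adjusted p = 2.17e-06). Myh14, a non-muscle myosin heavy chain, rose from 0.287 ± 0.0714 to 3.05 ± 0.226 TPM (1.65, SE 0.10, adjusted p = 1.69e-06). Myh9, the main non-muscle heavy chain of most cells, was at 213, 215, 177 and 203 TPM in Lv-Ctrl and at 447, 423, 457 and 472 TPM in the samples labelled Lv-Piezo1, and rose by 1.16 (SE 0.06, adjusted p = 6.71e-07). After median-ratio scaling its value was 0.99, just under the threshold. Myh10, another non-muscle heavy chain, was at 213 ± 20.1 TPM in Lv-Ctrl and 142 ± 8.39 TPM in the samples labelled Lv-Piezo1, a log2 value of -0.58 (SE 0.07, adjusted p = 1.22e-04) that did not reach the fold threshold.

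The remaining counterparts stayed below the fold threshold. Tpm3 (0.73), Cnn3 (0.69), Myl12a (0.62), Tpm4 (0.45), Tmod1 (0.44), Tmod4 (0.43) and Cnn2 (0.19) had positive log2 fold changes, and Tmod3, which caps the slow end of actin filaments, had -0.30 (adjusted p = 0.014). Tagln2, the transgelin of non-muscle cells, had 0.13, which turned to -0.04 after median-ratio scaling, and the essential light chain Myl6 had -0.02, which turned to 0.03 after quantile normalization. Myl12a shares nearly all of its coding sequence with Myl12b, which is not analysed here, so its level is uncertain. Tagln3, Mylk2, Mylk3, Lmod2, Tmod2, Smtnl1 and Smtnl2 were below a mean of 1 TPM, with Mylk3 listed at 0 in all 8 samples.

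**Figure D3:**
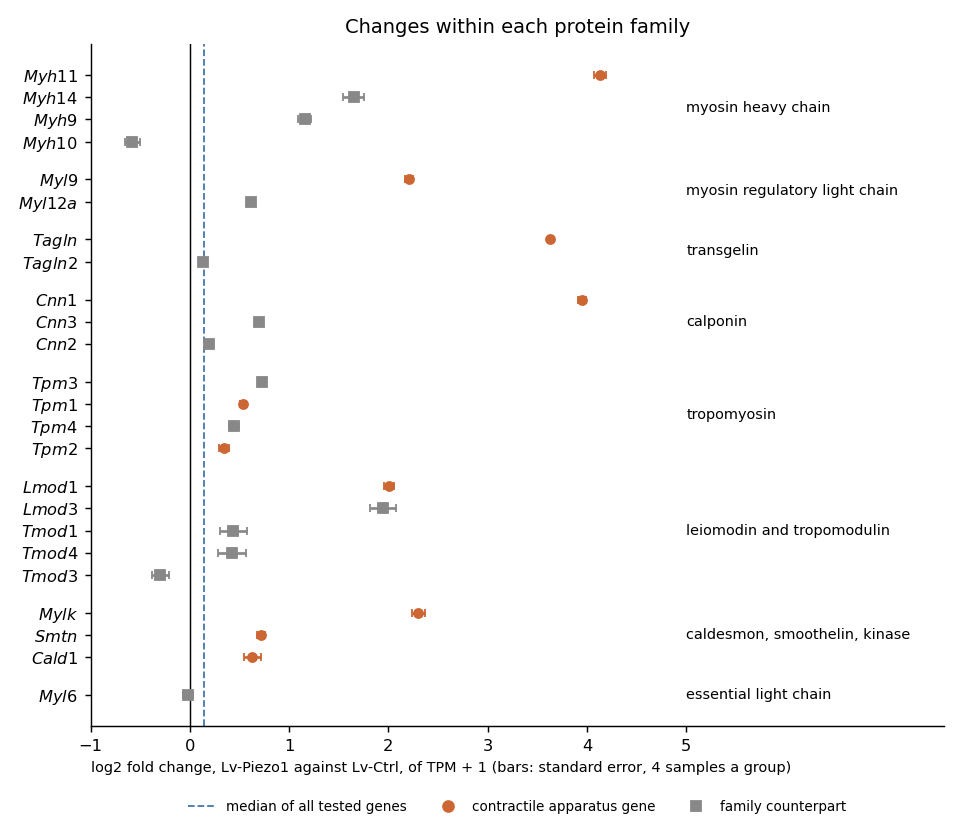
Log2 fold change of the samples labelled Lv-Piezo1 against Lv-Ctrl (horizontal axis, log2 of TPM + 1, bars are the standard error, 4 samples a group) for the contractile apparatus genes (orange circles) and their tested counterparts (grey squares), grouped by protein family, with the median of all tested genes (0.14) dashed. Myh11, Myl9, Tagln and Cnn1 lie to the right of their relatives, Lmod3 lies next to Lmod1, and the 4 tropomyosins lie together between 0.34 and 0.73.

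Within families, the make-up differed most for transgelin. Tagln held 19.4% ± 0.405 (SD, n = 4) of the transgelin TPM in Lv-Ctrl and 73.2% ± 0.638 in the samples labelled Lv-Piezo1, where the rest was nearly all Tagln2. The transgelin total was 1132 TPM against 3727 TPM, a ratio of 3.29. Cnn1 was 2.36% ± 0.166 of the calponins against 22.7% ± 0.311, and Cnn2 passed from 54.7% to 36.5%. Lmod1 was 9.02% ± 0.626 of leiomodin and tropomodulin TPM against 32.4% ± 1.17, with Tmod3 at 87.8% against 60.4%. Here the family total was 149 TPM against 176 TPM, a ratio of only 1.18, since Tmod3 was lower.

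Among the myosin heavy chains the larger shift was between the non-muscle forms. Myh11 was 0.433% ± 0.0478 of heavy chain TPM in Lv-Ctrl and 7.47% ± 0.206 in the samples labelled Lv-Piezo1, so it stayed a small part despite the highest fold. Myh9 was 48.5% ± 0.229 against 70.01% ± 0.188, and Myh10 was 51.0% ± 0.251 against 22.0% ± 0.370. Myl9 was 7.39% ± 0.383 against 19.4% ± 0.646 of the regulatory light chains counted here. The tropomyosins kept nearly the same make-up, with Tpm1 at 27.3% ± 0.826 against 29.2% ± 0.497 and Tpm2 at 45.8% ± 2.37 against 42.8% ± 1.76, while their total was 2727 TPM against 3696 TPM.

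**Figure D4:**
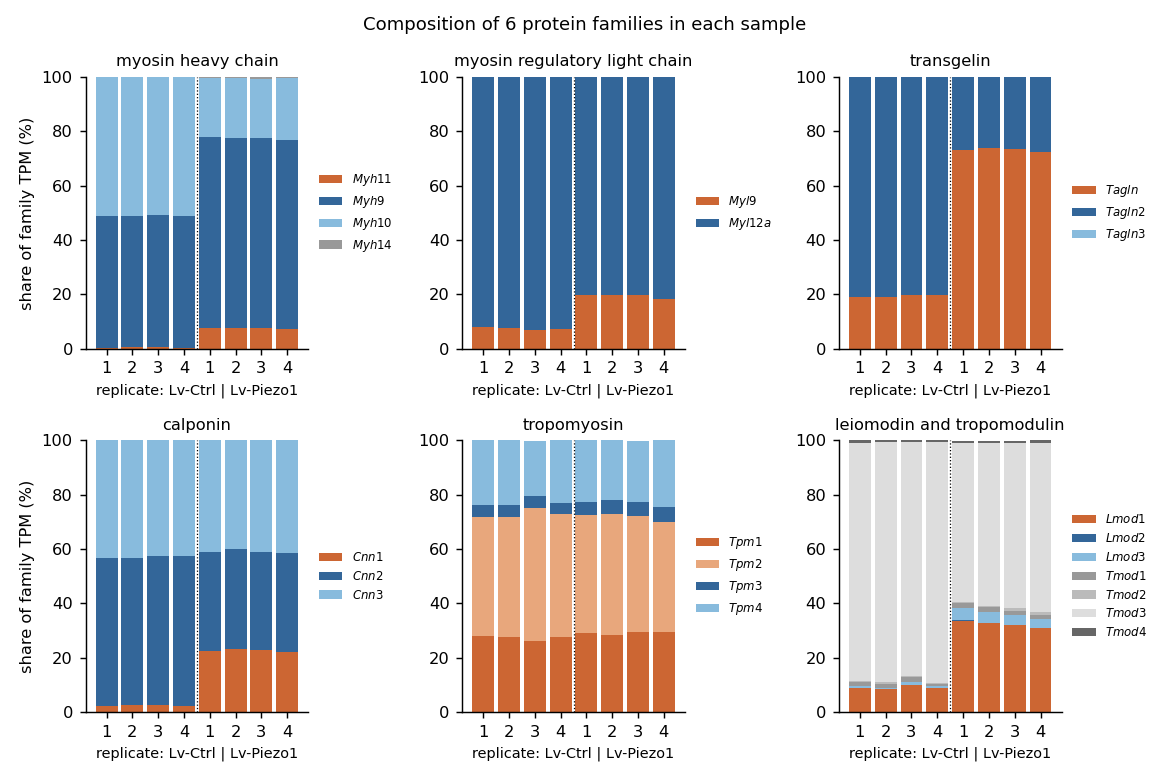
Share of the summed TPM of each of 6 protein families (vertical axis, percent) held by each of its genes, in the 4 Lv-Ctrl samples (left of the dotted line) and the 4 samples labelled Lv-Piezo1 (right), with the contractile apparatus genes in orange. Tagln passes from 19.4% to 73.2% of the transgelins and Lmod1 from 9.02% to 32.4% of its family, while the tropomyosin bars look alike in both groups.

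The promoters of the members were read for the letters bound by SRF and by the TEAD factors, since these genes are textbook targets of the former. RefSeq windows (GRCr8, 250 bases before to 50 after the start site) were matched by symbol for 6 of the 10 genes, in 7 windows, Cald1 having 2. Tagln, Myh11, Myl9 and Lmod1 were not matched. The CArG box, the SRF site, occurs with no mismatch in 1.64% of all 33469 windows and in 0 of these 7. Allowing 1 mismatch, a search chosen after that result was seen, 21.3% of all windows and 3 of the 7 hold it (Cald1, Tpm1 and Smtn). The MCAT letters CATTCC, searched on both strands, are in 14.2% of all windows and in 3 of the 7 (Cald1, Tpm1 and Mylk), and they overlap no CArG box there. A match is only a run of letters, and no match says nothing of sites outside the window. Below are the windows of Cnn1 and Mylk, with large differences, and of Tpm1 and Smtn, with small ones, written 5′ to 3′ on the strand of the gene, with MCAT letters and CArG boxes with 1 mismatch in capitals. Cnn1 is from chr8:28908187-28908486 (plus strand), Mylk from chr11:79498525-79498824 (minus strand), Tpm1 from chr8:76543366-76543665 (minus strand) and Smtn from chr14:82644465-82644764 (minus strand).
Cnn1: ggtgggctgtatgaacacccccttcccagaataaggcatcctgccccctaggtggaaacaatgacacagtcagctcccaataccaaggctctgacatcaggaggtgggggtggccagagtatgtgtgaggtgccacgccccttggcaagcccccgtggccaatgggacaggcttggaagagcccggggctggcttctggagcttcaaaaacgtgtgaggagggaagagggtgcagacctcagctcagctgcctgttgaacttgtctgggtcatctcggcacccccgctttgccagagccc
Mylk: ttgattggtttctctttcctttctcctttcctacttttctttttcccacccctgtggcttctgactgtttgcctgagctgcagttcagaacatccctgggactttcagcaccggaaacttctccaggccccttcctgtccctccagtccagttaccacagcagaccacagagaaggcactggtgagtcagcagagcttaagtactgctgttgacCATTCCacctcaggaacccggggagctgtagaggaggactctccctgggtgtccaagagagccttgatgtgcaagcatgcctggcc
Tpm1: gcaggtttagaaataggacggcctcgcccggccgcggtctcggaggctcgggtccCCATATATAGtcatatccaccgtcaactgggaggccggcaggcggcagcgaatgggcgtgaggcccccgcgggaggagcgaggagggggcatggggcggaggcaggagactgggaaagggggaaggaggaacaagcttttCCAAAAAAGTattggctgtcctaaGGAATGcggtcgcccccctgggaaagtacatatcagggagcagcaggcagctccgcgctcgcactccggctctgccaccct
Smtn: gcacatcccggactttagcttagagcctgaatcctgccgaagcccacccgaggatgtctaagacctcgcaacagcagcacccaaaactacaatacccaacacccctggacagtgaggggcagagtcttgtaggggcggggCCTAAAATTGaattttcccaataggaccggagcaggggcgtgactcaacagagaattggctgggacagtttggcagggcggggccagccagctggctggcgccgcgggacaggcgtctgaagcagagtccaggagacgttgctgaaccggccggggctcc

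MCAT letters stood on both sides of the gap in the members' differences, and CArG boxes with 1 mismatch only in genes with small differences. Of the genes with large differences, only Cnn1 and Mylk had a window. Cnn1, with a log2 difference of 3.95, has neither motif in its window, and Mylk, at 2.30, has MCAT letters at -36 from the start site. Tpm1, at 0.54, has the most, with CArG boxes of 1 mismatch at -195 and -55 and MCAT letters at -31. Smtn, at 0.72, has a CArG box of 1 mismatch at -110. Cald1, at 0.63, has a CArG box of 1 mismatch at -245 and MCAT letters at -195 in 1 of its windows, and Tpm2, at 0.34, has neither motif.

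Genes that set the phosphorylation of myosin, other than Mylk, were counted next. Of 20 tested rows for calmodulins, the phosphatase, its inhibitors and the RhoA and cGMP pathways, 2 rose and none fell by the call rule. Their median was 0.33, and 4.91% of all tested genes were called higher. At a limma adjusted p under 0.05 alone, 17 were higher and 1 lower, against 5489 and 2137 of 13103 tested genes. The lower one, the calmodulin gene Calm2, was at 1094 ± 30.1 TPM in Lv-Ctrl and 787 ± 4.41 TPM in the samples labelled Lv-Piezo1. Its log2 fold change was -0.47 (limma adjusted p = 8.96e-07). Irag1, a partner of the IP3 receptor in cGMP signaling, rose from 7.20 ± 0.747 to 23.9 ± 1.41 TPM (log2 fold change 1.60, SE 0.07, adjusted p = 2.33e-07). Ppp1r14a, the myosin phosphatase inhibitor CPI-17, was at 107, 107, 129 and 121 TPM in Lv-Ctrl and at 248, 249, 218 and 220.2 TPM in the samples labelled Lv-Piezo1, and rose by 1.01 (SE 0.07, adjusted p = 4.4e-06). This value lies at the threshold, and it was 0.84 after median-ratio scaling. It was 0.98 and 0.97 without the first and the second sample labelled Lv-Piezo1, so that Irag1 alone was called, and 0.97 without the first or the second Lv-Ctrl sample, where Ppp1r12b, a phosphatase subunit, was called in its place.

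Genes of the dense bodies and membrane anchors, to which actin filaments attach, numbered 20 tested. Of these 9 rose, where 4.91% of all tested genes were called higher, and none fell (limma, with 0 lower at an unadjusted p under 0.05). The median of the 20 was 0.98. The number called was 7 with median-ratio scaling, 8 with quantile normalization and 10 with a pseudocount of 0.1. Vcl, or vinculin, which links actin to adhesions, was at 92.0, 91.3, 75.7 and 87.7 TPM in Lv-Ctrl and at 361, 345, 371 and 396 TPM in the samples labelled Lv-Piezo1, and rose by 2.08 (SE 0.07, adjusted p = 2.25e-08). Des, or desmin, the intermediate filament of muscle, rose from 13.1 ± 1.06 to 44.2 ± 1.40 TPM (1.68, SE 0.06), and Csrp2, a LIM protein of smooth muscle, rose from 11.2 ± 1.21 to 36.4 ± 2.84 TPM (1.61, SE 0.08).

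Of 12 tested genes for SRF, its coactivators and related factors, 1 rose and 1 fell by the call rule. Among all tested genes 4.91% were called higher and 2.76% lower. The median of the 12 was 0.32 against 0.14 for all tested genes. At a limma adjusted p under 0.05 alone, 8 of the 12 were higher and 1 lower, against 5489 and 2137 of 13103 tested genes. Myocd, or myocardin, the muscle coactivator of SRF, was at 0.93, 0.99, 0.61 and 0.75 TPM in Lv-Ctrl and at 3.06, 2.88, 3.05 and 3.03 TPM in the samples labelled Lv-Piezo1, and rose by 1.14 (SE 0.10, adjusted p = 1.58e-05), a value that was 0.92 after quantile normalization. Gata6, a transcription factor of smooth muscle and other lineages, fell from 8.26 ± 0.641 to 3.27 ± 0.393 TPM (-1.12, SE 0.09, adjusted p = 5.43e-06). Srf itself was at 14.3 ± 0.894 and 23.5 ± 1.14 TPM, a log2 value of 0.68 that did not reach the fold threshold.

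Genes of striated muscle were low, and the direction of their median turned with 1 sample. Only 9 of 25 reached a mean of 1 TPM, and by the call rule none rose and 1 fell, with a median of -0.12. Among all tested genes 4.91% were called higher and 2.76% lower. At a limma adjusted p under 0.05 alone, 2 of the 9 were higher and 1 lower. Mybpc1, a myosin-binding protein of slow skeletal muscle, fell from 20.5 ± 1.75 to 2.36 ± 0.313 TPM (-2.68, SE 0.09, adjusted p = 2.61e-08). The myogenic factors Myog and Myod1 were listed at 0 in all 8 samples, and the summed level of the striated genes was 43.5 to 88.1 TPM in Lv-Ctrl and 39.3 to 46.2 TPM in the samples labelled Lv-Piezo1. The upper end in Lv-Ctrl was the second sample, where Ckm, the muscle creatine kinase, was at 14.0 TPM against 1.31 to 1.93 TPM in the other Lv-Ctrl samples. Without that sample the median of the list was 0.36, with 6 of 9 genes positive instead of 4, and Myl1, a skeletal light chain, was called higher as well (1.01).

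**Figure D5:**
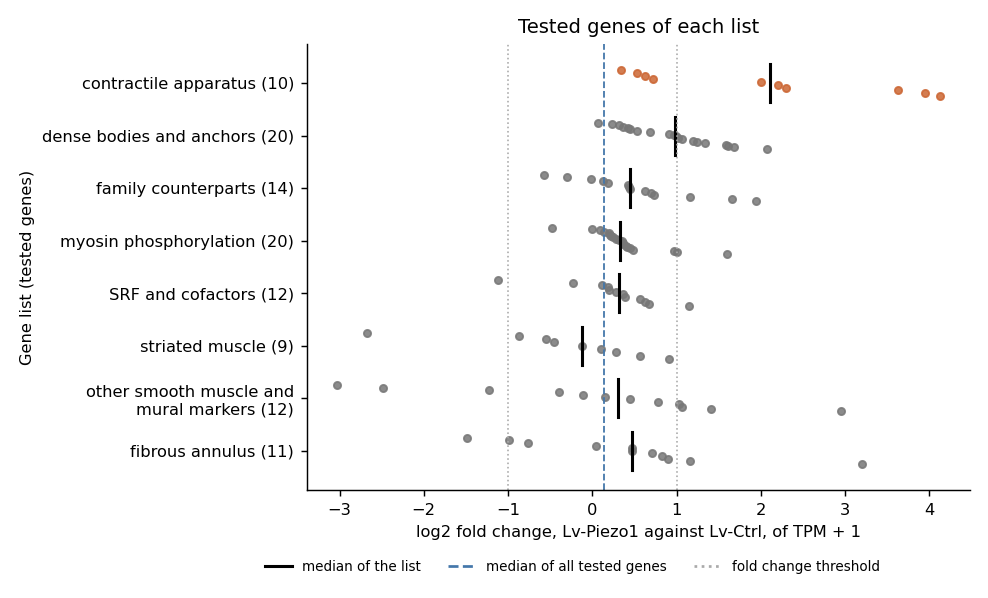
Log2 fold change of the samples labelled Lv-Piezo1 against Lv-Ctrl (horizontal axis, log2 of TPM + 1) of each tested gene (points) in the lists on the vertical axis, with the median of each list (black), the median of all tested genes (dashed, 0.14) and the fold change threshold (dotted). The dense body genes (median 0.98) lie between the contractile apparatus genes (2.11) and the fibrous annulus genes (0.48), the next highest median among the 8 lists drawn.

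The genes whose pattern over the 8 samples lay nearest to the mean of the 10 members were sought among 9051 genes with a symbol and a mean TPM of at least 5. They were Ccdc80, a secreted matrix protein, at a mean absolute distance of 0.0167 on the log2 scale, Aebp1, which encodes a collagen-binding matrix protein (0.0307), Lmcd1, a LIM protein (0.0393), Vwa1, a matrix protein (0.0486), and Adarb1, an RNA editing enzyme (0.0621). Ccdc80 was at 312 ± 9.76 TPM in Lv-Ctrl and 1305 ± 29.7 TPM in the samples labelled Lv-Piezo1, and Lmcd1 at 294 ± 4.34 and 1262 ± 13.6 TPM. The mean of the members itself lay 2.02 to 2.07 above its Lv-Ctrl mean in the samples labelled Lv-Piezo1, so the distance is set almost wholly by the size of the difference between the groups.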

How the data were processed

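RNA of 4 Lv-Ctrl and 4 Lv-Piezo1 samples of stretched rat AFCs was sequenced. The authors deposited TPM per gene, with rat Ensembl identifiers, and no counts, so depth is unknown and no count model was fitted. The study's methods describe HISAT2, StringTie, FPKM and the DESeq package, and the submitters' processing notes name DESeq2 and, although the identifiers are rat, mm10. How TPM was made and the rat build are not given in the sources used here. Group means in the table were not used.

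Log2(TPM + 1) was fitted for 13103 genes (mean TPM 1 or more) with limma 3.58.1 in R 4.3.3 (trend, empirical Bayes, Benjamini-Hochberg adjustment over all 13103), and calls needed an adjusted p under 0.05 with a log2 fold change of 1 or more in either direction. The scripts were tested on simulated data. The members and lists, the latter from general knowledge, were chosen with earlier results of these data known. Named were all members, their counterparts with a mean TPM of at least 1, up to 3 called genes in each direction of every other list, Piezo1 and the 5 nearest genes. Markers at 0, Ppp1r12b, Calm2, Myl1, Srf, Egfl7, Col1a1, Col1a2, Fmod, Mkx, Krt8, Pdgfrb, Cspg4, Notch3, Ckm and counterparts below that mean were named after their values were seen. Since no window held an exact CArG box, the 4 promoters printed were chosen after the search. Alternatives were other pseudocounts, filters, scalings, totals and moderation, a replicate block, no fold threshold and leaving out each sample. Leaving out single genes from marker sums was added after seeing the data. The labels name no batch.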

Additional observations from a re-analysis of the deposited data

Results flagged for a closer look

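Of 98 sets of 4 samples examined (49 genes in each group), 5 held a sample whose gap to the others exceeded the limit of Dixon's test, and chance gives about 1 in 20. Myl9 was at 514.93 TPM in the fourth sample labelled Lv-Piezo1, against 565.35 to 573.52 in the other samples of that group. Myl6 was at 4249.86 TPM in the third Lv-Ctrl sample, against 3783.94 to 3839.2 in the others. Myocd was at 2.88 TPM in the second sample labelled Lv-Piezo1, against 3.03 to 3.06. Gata6 was at 7.3 TPM in the third Lv-Ctrl sample, against 8.55 to 8.64. Dcn was at 1352.44 TPM in that same sample, against 1482.54 to 1497.57.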

How the results depend on the processing

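No member's log2 difference changed sign under the alternatives. The list counts pool calls in both directions, so they have no sign that could reverse. The members' median log2 difference was 2.11, and it was 2.15 with a pseudocount of 0.1, 1.95 with median-ratio scaling and 1.98 with quantile normalization. Over all alternatives Myh11 ranged from 3.96 to 4.67, Mylk from 2.10 to 2.83 and Tpm2 from 0.18 to 0.40. With a mean TPM of at least 5, 628 genes were called, with 1 counterpart and 1 SRF list gene. Myosin phosphorylation had 1 call with median-ratio scaling, with quantile normalization and without mitochondrially encoded genes, and 1 to 2 when a sample was left out. The SRF list had 1 call after quantile normalization. Striated genes had 2 calls with a pseudocount of 0.1, and 1 to 2 when a sample was left out. Without a fold change threshold 7626 of the 13103 tested genes were called, 5489 higher and 2137 lower, so most genes pass this rule. Called in either direction were 10 of 10 members, 13 of 14 counterparts and 18 of 20 myosin phosphorylation rows. The same held for 18 of 20 dense body, 9 of 12 SRF and 3 of 9 striated genes. Nothing is read from these counts. The cause of these shifts was not tested, apart from the fewer genes or looser rule that an alternative itself sets.

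With the replicate number as a replicate block 1004 genes were called (644 higher, 360 lower) against 1005, and no list count moved by over 1.5 times. Samples with the same number did not deviate together (correlations from -0.0576 to -0.0124), and none correlated best with its own number, so the numbers are not read as pairs. P-values measure the spread between samples, which the labels do not tie to separate animals. The study describes 4 biological repeats for its sequencing, and counts the third-passage cells of an isolation, under their different treatments, as 1 repeat. By that account a repeat would be a separate pool of 8 rats whose cells received both vectors. The labels do not say which samples share an isolation. Summing rows with the same symbol gave no other value, since each member has 1 row.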
